A study of Mus musculus with 18 samples.

Results

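Mgl2, Clec10a, Cd209a, Cd209b, Cd209c, Cd209d, Cd209e and Mrc1 encode cell-surface lectins of families known for binding galactose-type or mannose-type sugars. These 8 genes were taken by symbol from the 19937 genes that the array annotation names with a single symbol, and each had 1 probe set. They were selected on expression differences between the untreated cell subsets, so their values in those comparisons are given as a description without a test. The same untreated values enter the comparisons of DSS with untreated arrays, so the p-values of these genes there are a description too. A filter on low values kept 7 of the 8 among the 14003 genes tested. Cd209e was not kept.

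The data are 18 Affymetrix arrays of colon lamina propria cells from BALB/c mice aged 8 weeks, in 6 groups of 3 arrays. Cells freed with collagenase were sorted as MHC+CD11chigh and then by CD103 and CD11b, the integrins encoded by Itgae and Itgam. The groups are the CD103+CD11b+ subset, the CD103-CD11b+ subset and the CD103+CD11b- subset from mice given 2% dextran sulfate sodium (DSS, which injures the colon epithelium and causes colitis), and the same 3 subsets from untreated mice. The untreated arrays belong to experiments 1 to 3 and the DSS arrays to experiments 4 to 6, so DSS and experiment cannot be told apart. How many mice stood behind an array and how long DSS was given are not in the labels, and the p-values measure the spread between these arrays.

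C-type lectin receptors fold around calcium and use it to hold sugars. Mouse Mgl2 and Clec10a encode the macrophage galactose-type lectins, MGL2 and MGL1 (CD301b and CD301a), which bind terminal galactose or N-acetylgalactosamine. The Cd209 genes encode the mouse homologues of human DC-SIGN, a receptor that binds mannose- and fucose-bearing glycans on microbes and on host cells. Mrc1 encodes the mannose receptor CD206, an endocytic receptor with many lectin domains in a row. In the gut these receptors take up glycans of microbes and mucus and are carried by macrophages and by CD11b+ dendritic cells (DCs). Mice lacking Clec10a have been reported to develop more severe DSS colitis, and the product of Cd209d has been reported to bind commensal fungi.

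In the reference gene table Clec10a lies next to Mgl2, and the 5 Cd209 genes lie beside each other. Close paralogues can hybridise to each other's probes, which was not tested because probe sequences were not used here. RefSeq promoter windows, each with 250 bases before and 50 bases after the annotated start, were found for 7 of the 8 genes. 5 windows from build GRCm38.p6 are shown as examples. Mgl2 had the largest difference between subsets, and Cd209a and Cd209b were higher in both CD11b+ subsets than in CD103+CD11b- cells. Cd209d was highest in CD103-CD11b+ cells, and Cd209e exceeded the filter level on only 1 of 18 arrays. Each window is written 5′ to 3′ on the strand of its gene. The windows are chr11:70130107-70130406 on the plus strand for Mgl2, and on the minus strand chr8:3748935-3749234 for Cd209a, chr8:3926792-3927091 for Cd209b, chr8:3878450-3878749 for Cd209d and chr8:3854237-3854536 for Cd209e. Capitals mark matches, on either strand, to CCGGAA (an ETS factor core), GAGGAA (the core bound by the ETS factor PU.1) and TTC and GAA with any 4 bases between them (the spacing that STAT6 binds); a match on the other strand reads TTCCGG or TTCCTC.
Mgl2: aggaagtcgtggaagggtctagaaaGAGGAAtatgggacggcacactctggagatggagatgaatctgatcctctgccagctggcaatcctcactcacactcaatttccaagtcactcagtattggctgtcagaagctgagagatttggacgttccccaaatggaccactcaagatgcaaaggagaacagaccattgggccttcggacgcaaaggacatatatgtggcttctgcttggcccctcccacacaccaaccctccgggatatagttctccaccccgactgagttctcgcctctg
Cd209a: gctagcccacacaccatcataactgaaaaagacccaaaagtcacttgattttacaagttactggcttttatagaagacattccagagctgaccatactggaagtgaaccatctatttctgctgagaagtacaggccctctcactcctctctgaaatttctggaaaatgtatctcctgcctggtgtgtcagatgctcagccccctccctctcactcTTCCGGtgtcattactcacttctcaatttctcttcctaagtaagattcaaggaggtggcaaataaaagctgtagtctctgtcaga
Cd209b: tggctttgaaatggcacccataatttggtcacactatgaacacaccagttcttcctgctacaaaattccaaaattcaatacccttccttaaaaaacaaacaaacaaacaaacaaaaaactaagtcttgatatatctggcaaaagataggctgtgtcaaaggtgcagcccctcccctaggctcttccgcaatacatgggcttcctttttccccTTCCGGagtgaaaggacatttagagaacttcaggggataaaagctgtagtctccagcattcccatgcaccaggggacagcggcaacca
Cd209d: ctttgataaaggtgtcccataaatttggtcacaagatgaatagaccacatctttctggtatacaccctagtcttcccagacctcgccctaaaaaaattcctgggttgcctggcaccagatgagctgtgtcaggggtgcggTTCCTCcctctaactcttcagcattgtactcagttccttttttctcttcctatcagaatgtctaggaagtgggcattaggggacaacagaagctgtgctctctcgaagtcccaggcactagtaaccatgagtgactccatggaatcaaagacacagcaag
Cd209e: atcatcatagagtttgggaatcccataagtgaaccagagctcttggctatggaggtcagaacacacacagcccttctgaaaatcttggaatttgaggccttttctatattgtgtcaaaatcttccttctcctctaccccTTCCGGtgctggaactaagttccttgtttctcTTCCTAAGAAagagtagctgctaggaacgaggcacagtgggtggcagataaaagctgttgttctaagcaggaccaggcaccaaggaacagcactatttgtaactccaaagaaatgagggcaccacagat

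CCGGAA was chosen after the windows had been seen. It occurred once in the Cd209a window, at position -35 from the start, once in the Cd209b window, at position -38 from the start, and once in the Cd209e window, and 14.9% of 32851 promoter windows of the same length held it. GAGGAA occurred once each in the Mgl2 and Cd209d windows and 3 times in the Mrc1 window, against 28.3% of all windows with a match. The STAT6 spacing occurred once, in the Cd209e window, and 6.95% of all windows held it. The Cd209c window held none of the 3 motifs. In pairwise alignment the windows of Cd209b and Cd209d were 58.8% identical and those of Cd209d and Cd209e 58.3% identical, while Mgl2 and Cd209a were 43.6% identical. The matches describe letters only, and a link between them and expression was not tested.

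Itgae and Itgam followed the labels of the sort. Itgae averaged 9.06 in DSS CD103+CD11b+ cells, 7.44 in DSS CD103-CD11b+ cells and 9.61 in DSS CD103+CD11b- cells, and 8.84, 6.35 and 9.37 in the same subsets of untreated mice, all on the log2 scale of the deposited values. Itgam averaged 7.36, 8.01 and 6.13 in DSS mice and 7.31, 7.93 and 5.14 in untreated mice, in the same order of subsets. Itgax, which encodes CD11c and was selected for in every group, averaged 8.83, 9.27 and 8.58 in DSS mice and 8.94, 9.22 and 8.49 in untreated mice. Of 11 markers of conventional type 1 DCs (cDC1), 8 were lower in DSS CD103+CD11b+ than in DSS CD103+CD11b- cells and 9 were lower in DSS CD103-CD11b+ than in DSS CD103+CD11b- cells, with 0 higher. Of 9 tested markers of type 2 DCs (cDC2), 6 and 5 were higher and 1 and 0 lower. Of all 14003 genes tested, 335 and 608 were higher and 499 and 587 lower in the same 2 comparisons. The mean of 12 macrophage markers was highest in CD103-CD11b+ cells, at 8.15 to 8.45 in DSS and 8.18 to 8.88 in untreated arrays, with 0 of the 12 at or under the filter level on all 3 arrays of any group. Transcripts of other cells were present in every group, the mean of 11 epithelial markers at 7.60 to 8.73 and that of 7 B and plasma cell markers at 6.93 to 7.54, and their part in the results was not tested. In bulk samples such as these, fewer cells of a type and less RNA per cell cannot be told apart.

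The galactose-type lectins were higher in both CD11b+ subsets, in DSS and in untreated mice. Mgl2 read 9.07, 8.73 and 8.94 in DSS CD103+CD11b+ cells, 9.74, 8.87 and 9.28 in DSS CD103-CD11b+ cells and 5.52, 5.30 and 5.68 in DSS CD103+CD11b- cells. In untreated mice it read 9.29, 9.77 and 9.75 in CD103+CD11b+ cells, 9.31, 8.76 and 9.16 in CD103-CD11b+ cells and 4.76, 4.36 and 4.25 in CD103+CD11b- cells. All 12 arrays of CD11b+ cells lay above all 6 arrays of CD103+CD11b- cells, while the 2 CD11b+ subsets overlapped within each condition. Within DSS mice Mgl2 exceeded its level in CD103+CD11b- cells by 3.41 ± 0.21 (log2 difference ± standard error), a 10.6-fold difference, in CD103+CD11b+ cells, with an adjusted p of 2.31e-08 by limma and Benjamini-Hochberg over all genes tested. For CD103-CD11b+ cells the excess was 3.80 ± 0.21 (adjusted p = 1.39e-09 in the same limma fit). In untreated mice the corresponding differences were 5.15 ± 0.21 and 4.62 ± 0.21, the largest among the 7 genes in each comparison.

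Clec10a, whose product is the other mouse galactose-type lectin, was likewise higher in both CD11b+ subsets, at smaller differences. It read 6.88, 6.97 and 7.39 in DSS CD103+CD11b+ cells, 6.93, 6.68 and 6.56 in DSS CD103-CD11b+ cells and 3.65, 4.38 and 3.91 in DSS CD103+CD11b- cells. Untreated values were 6.46, 6.81 and 7.38 in CD103+CD11b+ cells, 6.71, 6.31 and 6.30 in CD103-CD11b+ cells and 3.80, 3.11 and 3.97 in CD103+CD11b- cells. The 2 CD11b+ subsets overlapped in both conditions, and neither overlapped with CD103+CD11b- cells. In DSS mice the difference from CD103+CD11b- cells was 3.10 ± 0.25 for CD103+CD11b+ cells and 2.74 ± 0.25 for CD103-CD11b+ cells, with adjusted p-values of 1.67e-07 and 3.59e-07 by limma. In untreated mice these differences were 3.26 ± 0.25 and 2.81 ± 0.25.

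**Figure D1:**
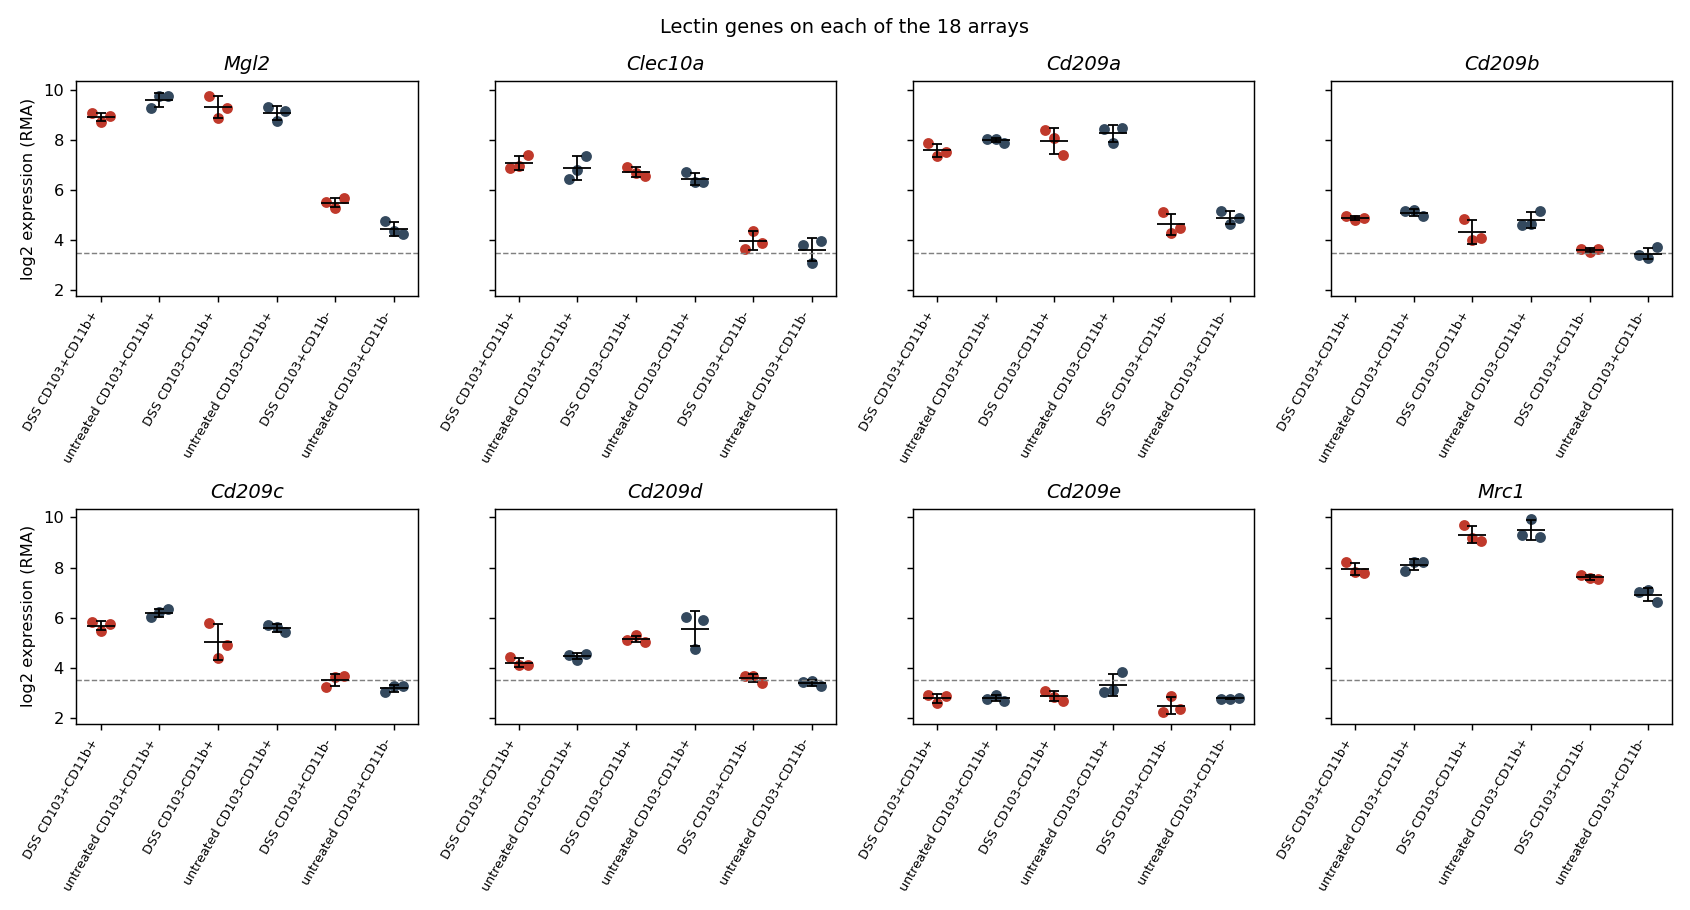
Log2 expression of the 8 lectin genes on each of the 18 arrays, by group along the horizontal axis (red, DSS; dark blue, untreated). Points are arrays, bars are the mean and SD of 3 arrays, and the dashed line is the filter level of 3.51; Mgl2 lies at 8.73 or above on all CD11b+ arrays and at 5.68 or below on all CD103+CD11b- arrays. Levels of different genes come from different probe sets and are not compared.

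Among the homologues of DC-SIGN, Cd209a had the largest difference between subsets. Cd209a read 7.86, 7.36 and 7.52 in DSS CD103+CD11b+ cells, 8.38, 8.09 and 7.40 in DSS CD103-CD11b+ cells and 5.11, 4.30 and 4.50 in DSS CD103+CD11b- cells. In untreated mice it read 8.04, 8.06 and 7.89 in CD103+CD11b+ cells, 8.45, 7.88 and 8.46 in CD103-CD11b+ cells and 5.18, 4.67 and 4.87 in CD103+CD11b- cells. The lowest CD11b+ array was thus more than 2 log2 units above the highest CD103+CD11b- array. In DSS mice Cd209a was higher than in CD103+CD11b- cells by 2.94 ± 0.24 in CD103+CD11b+ cells and by 3.32 ± 0.24 in CD103-CD11b+ cells (adjusted p = 1.94e-07 and 4.12e-08, limma). The untreated differences were 3.09 ± 0.24 and 3.36 ± 0.24.

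Cd209b encodes SIGNR1, known from marginal zone macrophages of the spleen, where it takes up microbial polysaccharides. It read 4.97, 4.83 and 4.88 in DSS CD103+CD11b+ cells, 4.87, 4.02 and 4.10 in DSS CD103-CD11b+ cells and 3.64, 3.53 and 3.65 in DSS CD103+CD11b- cells. Untreated values were 5.15, 5.20 and 4.95 in CD103+CD11b+ cells, 4.59, 4.66 and 5.16 in CD103-CD11b+ cells and 3.40, 3.30 and 3.72 in CD103+CD11b- cells, where its mean of 3.47 lay under the filter level. In DSS mice it was higher by 1.28 ± 0.19 in CD103+CD11b+ cells than in the CD103+CD11b- subset (adjusted p = 0.000191, limma). The difference of 0.72 ± 0.19 between DSS CD103-CD11b+ and DSS CD103+CD11b- cells passed at an adjusted p of 0.0210 by limma but did not pass in a fit on those 2 groups alone (adjusted p = 0.0648), without DSS CD103-CD11b+ replicate 4 (0.46, adjusted p = 0.150) or without any 1 of the 3 DSS CD103+CD11b- arrays.

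Cd209c, which encodes SIGNR2, resembled Cd209b. It read 5.84, 5.48 and 5.76 in DSS CD103+CD11b+ cells, 5.81, 4.39 and 4.93 in DSS CD103-CD11b+ cells and 3.22, 3.65 and 3.66 in DSS CD103+CD11b- cells. In untreated mice it read 6.04, 6.23 and 6.36 in CD103+CD11b+ cells, 5.72, 5.63 and 5.44 in CD103-CD11b+ cells and 3.03, 3.28 and 3.27 in CD103+CD11b- cells, with a mean of 3.19 there, under the filter level. The DSS CD103-CD11b+ group was spread widely, with an SD of 0.72 (n = 3). In DSS mice Cd209c was higher than in CD103+CD11b- cells by 2.18 ± 0.24 in CD103+CD11b+ cells and by 1.53 ± 0.24 in CD103-CD11b+ cells (adjusted p = 6.66e-06 and 0.000218, limma). The untreated differences were 3.02 ± 0.24 and 2.40 ± 0.24, from a mean under the filter level, so their size is uncertain. Cd209c exceeded the filter level on 0 of 3 untreated and 2 of 3 DSS CD103+CD11b- arrays. The filter thus kept it through the CD11b+ groups where it is high, and its p-values against CD103+CD11b- cells are a description.

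Cd209d and Mrc1 followed another order, with CD103-CD11b+ cells highest. Cd209d, which encodes SIGNR3, read 4.42, 4.12 and 4.11 in DSS CD103+CD11b+ cells, 5.13, 5.30 and 5.03 in DSS CD103-CD11b+ cells and 3.70, 3.67 and 3.42 in DSS CD103+CD11b- cells. Without DSS it read 4.53, 4.32 and 4.54 in CD103+CD11b+ cells, 6.03, 4.76 and 5.90 in CD103-CD11b+ cells and 3.45, 3.46 and 3.27 in CD103+CD11b- cells, a mean of 3.40 under the filter level. No array of a subset overlapped with another subset within a condition. In DSS mice Cd209d in CD103-CD11b+ cells exceeded that in CD103+CD11b- cells by 1.56 ± 0.23 (adjusted p = 9.03e-05, limma), while the 0.62 ± 0.23 between CD103+CD11b+ and CD103+CD11b- cells did not pass (adjusted p = 0.141, limma). Cd209d exceeded the filter level on 0 of 3 untreated and 2 of 3 DSS CD103+CD11b- arrays. The filter thus kept it through the CD11b+ groups where it is high, and its p-values against CD103+CD11b- cells are a description.

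Mrc1, the mannose receptor, read 8.23, 7.83 and 7.77 in DSS CD103+CD11b+ cells, 9.69, 9.17 and 9.06 in DSS CD103-CD11b+ cells and 7.72, 7.59 and 7.55 in DSS CD103+CD11b- cells. In untreated mice it read 7.87, 8.24 and 8.24 in CD103+CD11b+ cells, 9.32, 9.96 and 9.24 in CD103-CD11b+ cells and 7.03, 7.09 and 6.63 in CD103+CD11b- cells. In DSS mice the lowest CD103+CD11b+ array exceeded the highest CD103+CD11b- array by a narrow margin. The difference of 0.32 ± 0.20 between these groups did not pass (adjusted p = 0.535, limma), while CD103-CD11b+ cells exceeded CD103+CD11b- cells by 1.69 ± 0.20 (adjusted p = 1.12e-05, limma). The untreated differences were 1.20 ± 0.20 and 2.59 ± 0.20.

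Cd209e, which encodes SIGNR4, ran from 2.26 to 3.83 over the 18 arrays and exceeded the filter level of 3.51 on 1 of them, an untreated CD103-CD11b+ array. It was not tested. The level is a percentile of all values and not a measured background, so the absence of a transcript cannot be read from it.

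Over the 7 genes kept by the filter, 5 were higher in DSS CD103+CD11b+ than in DSS CD103+CD11b- cells and 0 lower, where 2.39% of all genes tested were higher. The median difference of the 7 was 2.18, and that of all genes was 0.00 at 2 decimals. These 7 genes had their 3 CD103+CD11b+ arrays above the 3 CD103+CD11b- arrays, as did 10.4% of all genes. Between DSS CD103-CD11b+ and DSS CD103+CD11b- cells, 7 of 7 were higher, against 4.34% of all genes, and 7 of 7 did not overlap, against 12.8%. Their median difference was 1.69, beside 0.01 over all genes. Cd209c and Cd209d exceeded the filter level on 2 of the 6 CD103+CD11b- arrays each, so the filter kept them through the CD11b+ groups where they are high. Cd209e, which the filter did not keep, overlapped in both DSS comparisons. The counts over the 7 genes are for these reasons a description. In untreated mice the 7 likewise lay without overlap above CD103+CD11b- cells in both comparisons, where 13.9% of all genes did so in CD103+CD11b+ cells and 10.7% in CD103-CD11b+ cells. These untreated comparisons chose the genes, and nothing is read from those shares.

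Within each of the 6 experiments, every 1 of the 7 genes was higher in both CD11b+ subsets than in the CD103+CD11b- cells of the same experiment. The smallest of these differences was 0.22, for Mrc1 between CD103+CD11b+ and CD103+CD11b- cells of experiment 6. For Mgl2 the difference between CD103+CD11b+ and CD103+CD11b- cells was 3.55, 3.43 and 3.26 in the DSS experiments and 4.53, 5.41 and 5.49 in the untreated experiments. The untreated comparisons chose the genes, and the filter kept Cd209c and Cd209d through the CD11b+ groups. The shared direction over experiments is for these reasons a description, and the share of all genes with it was not counted.

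**Figure D2:**
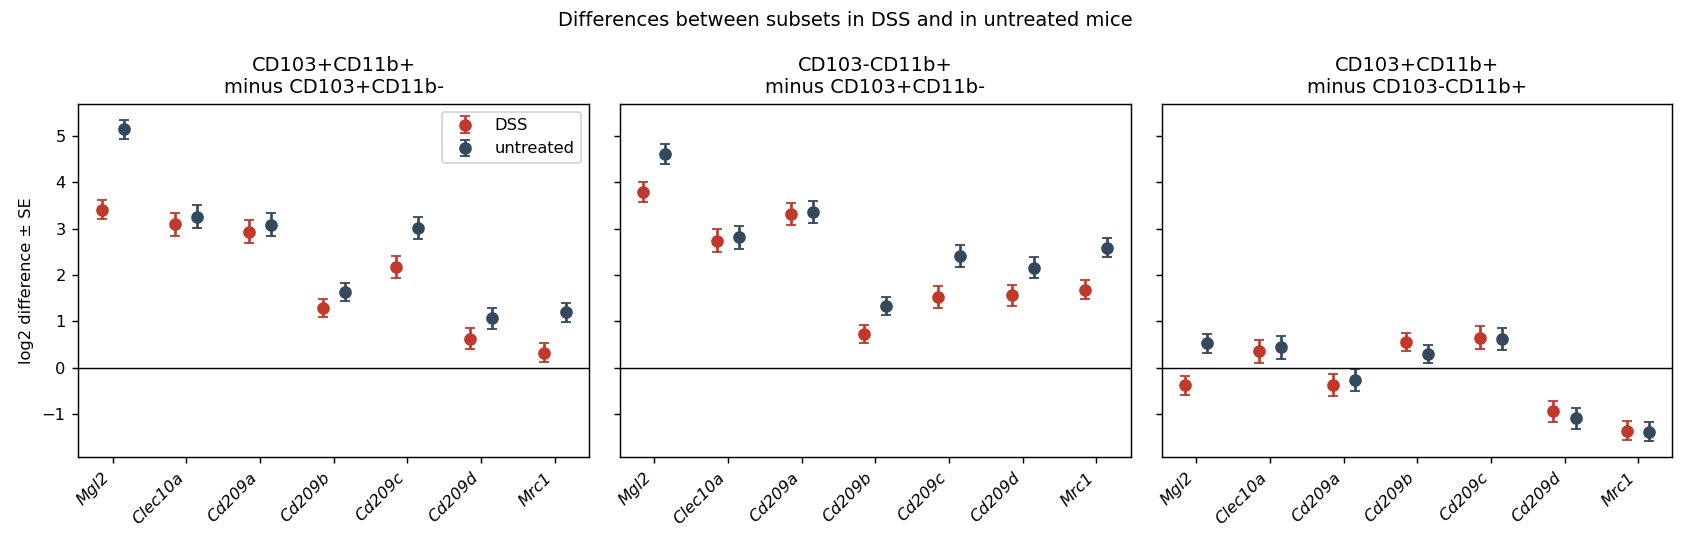
Log2 differences between subsets (vertical axis, with limma's standard error) for the 7 lectin genes kept by the filter, within DSS mice (red) and within untreated mice (dark blue). In the first 2 panels all points lie above 0; in the third panel Mrc1 and Cd209d lie at -1.36 and -0.94 in DSS mice and at -1.39 and -1.09 in untreated mice, and the other genes lie between -0.38 and 0.65.

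The 2 CD11b+ subsets differed from each other in Mrc1 and Cd209d. In DSS mice Mrc1 was lower in CD103+CD11b+ cells than in the CD103-CD11b+ subset by 1.36 on the log2 scale (difference -1.36 ± 0.20, adjusted p = 0.00101, limma), a 2.57-fold difference. Cd209d was lower by 0.94 (-0.94 ± 0.23, adjusted p = 0.0415, limma), and this call was lost with no filter on low values (adjusted p = 0.0538), after a second quantile normalization (adjusted p = 0.0502) and on leaving out any 1 of the 6 arrays compared (adjusted p = 0.0738 to 0.153). These 2 of the 7 genes were lower, against 1.14% of all genes tested, and both were without overlap, against 9.82%. No gene of the 7 was higher.

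Clec10a at 0.36 ± 0.25, Cd209b at 0.56 ± 0.19 (adjusted p = 0.233) and Cd209c at 0.65 ± 0.24 (adjusted p = 0.288, limma) had positive differences between the DSS CD11b+ subsets that did not pass. Those of Mgl2 and Cd209a were -0.38 ± 0.21 and -0.38 ± 0.24. Without DSS CD103-CD11b+ replicate 4, Cd209b and Cd209c passed at 0.83 and 1.03 (adjusted p = 0.0250 and 0.00964, limma). That array had the highest value of its group for both genes. In untreated mice Mrc1 and Cd209d were lower in CD103+CD11b+ cells than in the CD103-CD11b+ subset without overlap, by differences of -1.39 ± 0.20 and -1.09 ± 0.23, as were 5.40% of all genes. Cd209c was higher without overlap (0.61 ± 0.24), as were 12.0% of all genes. Within experiments Mrc1 differed by -1.46, -1.34 and -1.29 in DSS mice and by -1.45, -1.72 and -1.0 in untreated mice.

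Macrophage markers moved beside this difference. In DSS CD103+CD11b+ cells 8 of 12 were lower than in DSS CD103-CD11b+ cells and 0 higher, among them Csf1r, the receptor of macrophage colony-stimulating factor, at -1.62 ± 0.17, and the complement genes C1qb at -1.41 ± 0.20 and C1qa at -1.41 ± 0.18. The mean of the 12 markers ran from 7.33 to 7.40 in DSS CD103+CD11b+ cells and from 8.15 to 8.45 in DSS CD103-CD11b+ cells. Of all genes tested, 1.14% were lower in DSS CD103+CD11b+ than in DSS CD103-CD11b+ cells. The part of the macrophage markers in the differences of Mrc1 and Cd209d was not tested.

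After DSS, 0 of the 7 genes passed the limma test in any subset. These comparisons use the untreated values on which the genes were chosen, so the p-values and counts of these genes are a description. In CD103+CD11b+ cells 12 of all genes tested, 0.0857%, were called. At an unadjusted p under 0.05 there were 2 of the 7 lectin genes and 1410 of all genes. Mgl2 averaged 8.91 ± 0.17 in DSS CD103+CD11b+ cells and 9.60 ± 0.27 in untreated CD103+CD11b+ cells (SD, n = 3 each), a difference of -0.69 ± 0.21 (adjusted p = 0.275, limma). Cd209c differed by -0.52 ± 0.24 (adjusted p = 0.480) and Cd209a by -0.41 ± 0.24 (adjusted p = 0.586, limma). In these 3 genes all DSS arrays lay below all untreated arrays of the subset, as in 11.2% of all genes. The neutrophil transcript Retnlg was higher in DSS than in untreated CD103+CD11b+ cells by 1.44 ± 0.25 (adjusted p = 0.0282, limma), and its part in these values was not tested.

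In CD103+CD11b- cells Mgl2 had a difference in the opposite direction. It averaged 5.50 ± 0.19 in DSS and 4.46 ± 0.27 in untreated CD103+CD11b- cells (SD, n = 3 each), a difference of 1.04 ± 0.21 that did not pass (adjusted p = 0.0673, limma). Mrc1 averaged 7.62 in DSS and 6.92 in untreated CD103+CD11b- cells, a difference of 0.70 ± 0.20 (adjusted p = 0.437, limma). Both genes had all DSS arrays above all untreated arrays, as did 7.48% of all genes. In this subset 18 of all genes, 0.129%, were called. At an unadjusted p under 0.05 there were 2 of the 7 lectin genes and 852 of all genes. With a trended and robust prior for the spread, Mgl2 passed at an adjusted p of 0.0284 by limma. That value is a description too, since the untreated values chose the gene.

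Among the cDC2 and macrophage markers, only Sirpa was called between DSS and untreated CD103+CD11b- cells, where 0.129% of all genes tested were called. Itgam was 6.13 in DSS and 5.14 in untreated CD103+CD11b- cells, a difference of 0.99 ± 0.20 that did not pass (adjusted p = 0.0840, limma). Sirpa, an inhibitory receptor of cDC2 and macrophages, was higher by 0.83 ± 0.14 (adjusted p = 0.0215, limma) and was the 1 of 9 cDC2 markers called. The mean of 12 macrophage markers ran from 7.04 to 7.09 in DSS and from 6.62 to 6.85 in untreated CD103+CD11b- cells, with 0 of the 12 called. Retnlg was higher here too, by 1.33 ± 0.25 (adjusted p = 0.0413, limma). The part of these in the Mgl2 and Mrc1 values was not tested.

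In CD103-CD11b+ cells the DSS differences ran from -0.55 for Cd209c to 0.28 for Clec10a, and none of the 7 genes separated DSS from untreated arrays. Here 14 of all genes, 0.100%, were called, and at an unadjusted p under 0.05 there were 2 of the 7 lectin genes (Cd209b and Cd209c) and 1074 of all genes. Cd209d differed by -0.40 ± 0.23 (adjusted p = 0.713, limma) and by -0.81 without untreated CD103-CD11b+ replicate 2, where it passed (adjusted p = 0.0471). That array read 4.76 for Cd209d beside 6.03 and 5.90 in its group. Itgae was higher in DSS than in untreated CD103-CD11b+ cells by 1.08 ± 0.13 (adjusted p = 0.00103, limma), while Retnlg differed by 1.26 ± 0.25 and did not pass (adjusted p = 0.0616, limma). Their part in the lectin values was not tested.

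**Figure D3:**
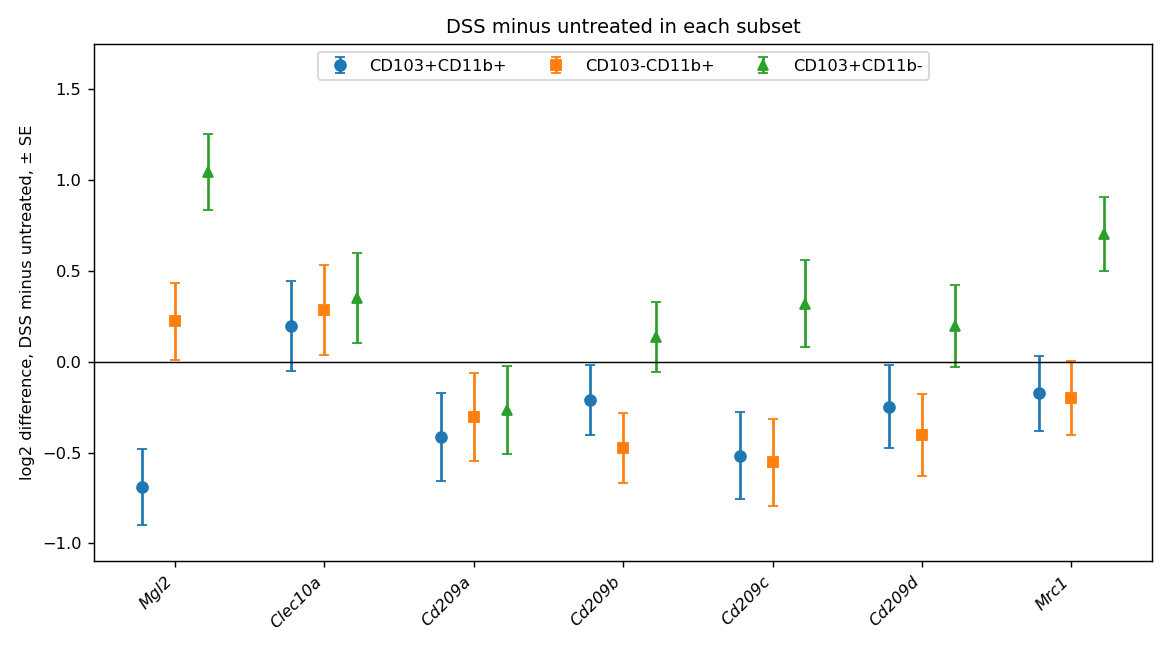
Log2 difference between DSS and untreated arrays (vertical axis, with limma's standard error) for 7 lectin genes in CD103+CD11b+ (circles), CD103-CD11b+ (squares) and CD103+CD11b- cells (triangles). Mgl2 lies at -0.69, 0.22 and 1.04 in the 3 subsets; no point passed the test.

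The DSS difference was compared between subsets by interaction contrasts, and 0 of the 14003 genes (0%) were called in each of the 3 contrasts. The untreated values on which the lectin genes were chosen enter these contrasts, so the p-values of these genes here are a description. Mgl2 had a DSS difference of -0.69 in CD103+CD11b+ and 1.04 in CD103+CD11b- cells, and the difference between these, -1.73 ± 0.30, had an adjusted p of 0.0979 by limma. It passed with the trended and robust prior (adjusted p = 0.0362), which called 2 genes in all. For Mrc1 the DSS difference was lower by 0.88 in CD103+CD11b+ cells than in the CD103+CD11b- subset (-0.88 ± 0.29) and by 0.90 in CD103-CD11b+ cells than in the CD103+CD11b- subset (-0.90 ± 0.29), with adjusted p-values of 0.983 and 1.00 by limma. At an unadjusted p under 0.05, 3, 4 and 1 of the 7 genes and 676, 510 and 778 of all genes were found for CD103+CD11b+ minus CD103+CD11b-, CD103-CD11b+ minus CD103+CD11b- and CD103+CD11b+ minus CD103-CD11b+ cells.

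Relatives of the 8 genes were not uniformly higher in CD11b+ cells. Of 13 other lectin genes close to them by family, 9 were tested. Cd207, which encodes langerin, was lower in DSS CD103+CD11b+ than in DSS CD103+CD11b- cells by a difference of -2.43 ± 0.30 and in DSS CD103-CD11b+ cells by -3.28 ± 0.30. Ly75, which encodes DEC-205, an endocytic receptor of the same family as the mannose receptor, was lower by -0.67 ± 0.16 and -1.76 ± 0.16 in the same comparisons. Colec12, a scavenger receptor with a lectin domain, was the only 1 of the 9 that was higher, in DSS CD103-CD11b+ cells (0.79 ± 0.16). Ly75 was higher in DSS CD103+CD11b+ than in DSS CD103-CD11b+ cells by 1.08 ± 0.16. All 6 calls had adjusted p-values of at most 0.0119 by limma, and after DSS 0 of the 9 were called in any subset. Of all 14003 genes tested, 335 were higher and 499 lower in DSS CD103+CD11b+ than in DSS CD103+CD11b- cells. For DSS CD103-CD11b+ cells these counts were 608 and 587. Between the DSS CD11b+ subsets 61 were higher and 160 lower in CD103+CD11b+ cells. After DSS at most 0.129% of all genes were called in a subset. The median difference of the 9 genes was 0.10, 0.18 and -0.01 in the 3 DSS comparisons, beside 0.00, 0.01 and -0.02 over all genes.

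Of 14 tested myeloid C-type lectins outside these families, 6 were higher and 3 lower in DSS CD103+CD11b+ than in DSS CD103+CD11b- cells. Clec4n (Dectin-2, a receptor for fungal mannans) was higher by 2.22 ± 0.19, while Clec9a, the cDC1 receptor for dead cells, and Clec12a were lower at -2.93 ± 0.26 and -1.72 ± 0.22. In DSS CD103-CD11b+ against DSS CD103+CD11b- cells 8 were higher and 3 lower, with Clec4n at 2.37 ± 0.19, Clec5a at 2.32 ± 0.26 and Clec9a at -2.96 ± 0.26. Between the CD11b+ subsets 4 were lower in DSS CD103+CD11b+ cells and 0 higher, among them Clec4e (Mincle) at -1.40 ± 0.29. After DSS, Clec4e and its neighbour in function Clec4d were higher in CD103+CD11b- cells, by 1.77 ± 0.29 and 0.96 ± 0.16, and Clec9a was higher in CD103-CD11b+ cells by 1.40 ± 0.26. The medians over the 14 were 0.37, 1.11 and -0.23 in the 3 DSS comparisons of subsets. Against DSS CD103+CD11b- cells, 335 and 608 of all 14003 genes were higher and 499 and 587 lower. Between the DSS CD11b+ subsets 1.14% were lower in CD103+CD11b+ cells. After DSS, 0.129% of all genes were called in CD103+CD11b- and 0.100% in CD103-CD11b+ cells.

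Another list held galectins and Siglecs, lectins that bind galactosides and sialic acids, and Lgals3bp, a glycoprotein that galectins bind. Of its 13 genes 4 were higher and 0 lower in DSS CD103+CD11b+ than in DSS CD103+CD11b- cells, led by Siglecg at 1.90 ± 0.23 and Siglece at 1.29 ± 0.23. In DSS CD103-CD11b+ cells 6 were higher and 0 lower, led by Cd33 at 1.70 ± 0.25 and Lgals3bp at 1.48 ± 0.18, and Lgals3bp was lower in DSS CD103+CD11b+ than in DSS CD103-CD11b+ cells (-1.38 ± 0.18). 0 were called after DSS in any subset, where at most 0.129% of all genes were. The medians were 0.25, 0.43 and -0.15 in the 3 DSS comparisons. Against DSS CD103+CD11b- cells 2.39% of all genes were higher in DSS CD103+CD11b+ and 4.34% in DSS CD103-CD11b+ cells. Between the DSS CD11b+ subsets 1.14% were lower in CD103+CD11b+ cells.

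Mgl2, Clec10a and Mrc1 are known to be raised by interleukin 4 in mouse macrophages, and 19 other tested genes of the response to interleukins 4 and 13 were listed for that reason. In DSS CD103+CD11b+ against DSS CD103+CD11b- cells 4 were higher and 0 lower, with Il1rn (the interleukin 1 receptor antagonist) at 0.98 ± 0.14, the transcription factor Irf4 at 0.84 ± 0.16 and Tgm2 (transglutaminase) at 0.76 ± 0.19. In DSS CD103-CD11b+ cells 5 were higher and 1 lower, led by the eosinophil chemokine Ccl24 at 1.93 ± 0.39 and Il1rn at 1.58 ± 0.14. Ccl24 and Il1rn were the 2 of 19 that were lower in DSS CD103+CD11b+ than in DSS CD103-CD11b+ cells, at -1.86 ± 0.39 and -0.60 ± 0.14. After DSS, Tgm2 alone was called, in CD103+CD11b- cells (1.03 ± 0.19, adjusted p = 0.0407, limma). The list medians were 0.12, 0.33 and -0.22 in the 3 DSS comparisons of subsets. Of all genes tested, 2.39% were higher in DSS CD103+CD11b+ and 4.34% in DSS CD103-CD11b+ than in DSS CD103+CD11b- cells. Between the CD11b+ subsets, 1.14% were lower in DSS CD103+CD11b+ cells. Irf4 and Klf4 are also on the cDC2 list. An effect of interleukins 4 and 13 on the lectin values was not tested.

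Genes with the most similar pattern over the 18 arrays were ranked by Pearson's r. These arrays form clusters by subset, so r mostly describes the differences between subsets, and arrays of an experiment share its handling. For Mgl2 the nearest were Pcyt1a (r = 0.97), Ms4a6d, Mmp12, Clec4n and Ctsz, and 85 genes exceeded 0.9. For Clec10a they were Ms4a4c, Mgl2 (both 0.96), Vopp1, Clec4n and Lta4h. For Cd209a they were Mefv (0.99), Ms4a6d, Gpr183, Pxdc1 and Il7r. Cd209b was nearest to Cd209c (0.96), then to Il2ra, Cd300a, Zdhhc18 and Ank, and Cd209c was nearest to Cd209b, Mgl2, Cd300a, Sh2d1b1 and Il2ra. Mrc1 stood beside Apoe (0.99), C1qc, Abca1, Csf1r and C1qb, of which Apoe, C1qc, Csf1r and C1qb are on the macrophage list. Cd209d stood beside Tarm1 (0.94), Lrp1, St3gal4, Myo1e and Il22ra2.

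Over the 12 arrays of CD11b+ cells alone the members parted. Cd209b and Cd209c still varied together (r = 0.83), and so did Cd209d with Mrc1 (0.72) and with Cd209a (0.72). Mgl2 and Mrc1 had r = 0.75 over all 18 arrays and 0.01 over these 12, and Clec10a and Mrc1 had 0.64 and -0.55. The 12 arrays include both subsets, which differ in Mrc1 and Cd209d.

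**Figure D4:**
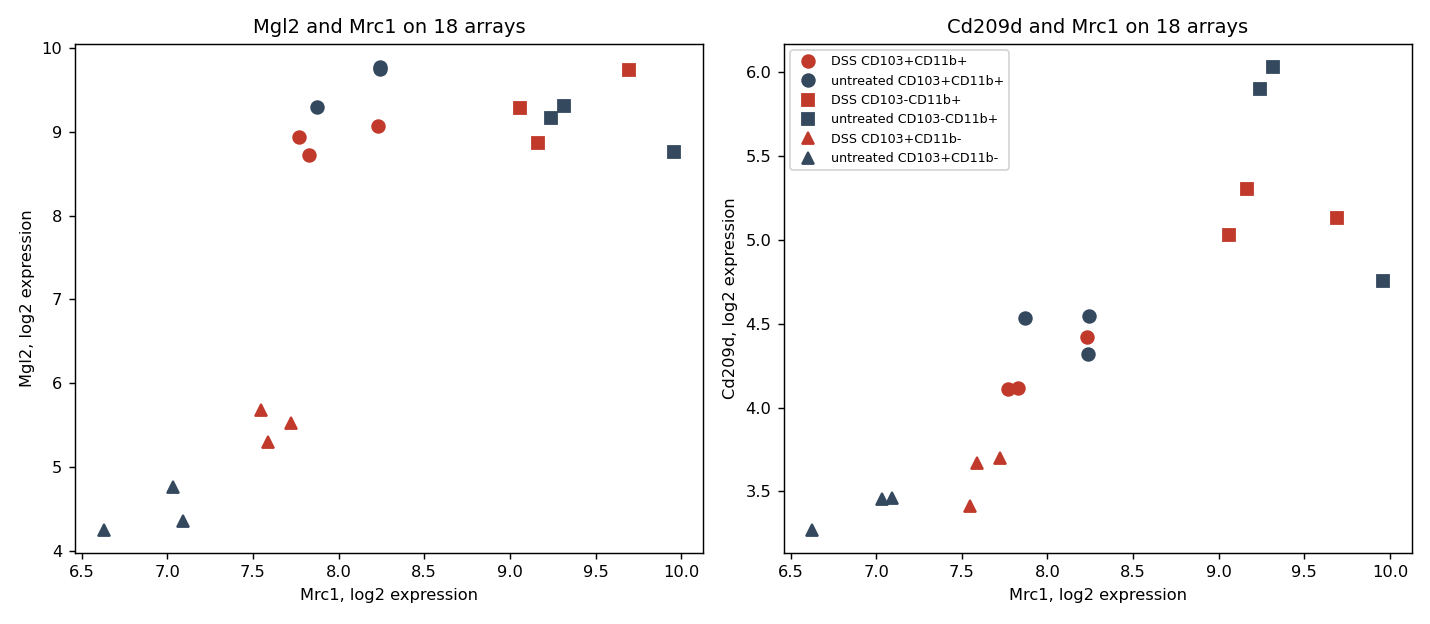
Log2 expression of Mgl2 (left) and Cd209d (right) on the vertical axes against Mrc1 on the horizontal axes, 1 point per array (circles, CD103+CD11b+; squares, CD103-CD11b+; triangles, CD103+CD11b-; red, DSS; dark blue, untreated). Mgl2 lies at 8.73 to 9.77 on all CD11b+ arrays while Mrc1 runs there from 7.77 to 9.96; Cd209d is highest, 4.76 to 6.03, in CD103-CD11b+ cells.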

How the data were processed

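Expression was measured on 18 Affymetrix arrays. The deposited table holds log2 values, 1 per probe set and array, which the authors made by RMA (background correction, quantile normalization and a summary over probes), as the submitters' processing notes name it. Its version and the array's genome build are not given in the sources used here, and the values carry no detection calls. Array medians lay between 3.99 and 4.09. Of 34760 probe sets, 21640 carried 1 gene symbol, 1321 several and 11799 none. Only those with 1 symbol were used. The one with the highest mean stood for a gene, and genes above the 40th percentile of all values (3.51) on at least 3 arrays were tested. A difference from a mean under that level is uncertain in size.

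One mean per group was fitted to all 18 arrays with limma 3.58.1 in R 4.3.3, reading tables with data.table version 1.17.8, and two-sided p-values were adjusted by Benjamini-Hochberg over the 14003 genes tested. A gene was called under 0.05; "higher" and "lower" counts are of called genes. Errors beside differences are limma's standard errors, and the small number of arrays limits the precision. The fit was tested on simulated data. The members, gene lists and tests were chosen with earlier results of these data known. Named were the 8 lectin genes, the 3 sort genes, up to 3 called genes of a list with the largest differences, and the 5 genes most correlated with each lectin gene; Retnlg and Sirpa come from the granulocyte and cDC2 lists. Lists of monocyte, plasmacytoid DC, T and innate lymphoid cell, endothelial, granulocyte, epithelial and B cell markers had at most 4 genes called in any comparison after DSS or between DSS subsets.

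The experiment number in the titles was taken to pair the subsets of a condition. Residuals of arrays sharing a number correlated across genes by 0.11 to 0.31 in DSS arrays (median 0.18, 9 pairs) and by -0.03 to 0.32 in untreated arrays (median 0.25, 9 pairs), and the other 18 pairs of each condition had medians of -0.13 and -0.12. Residuals sum to 0 within each group, so positive values for shared numbers push the other pairs below 0. The negative medians are therefore no separate support for the pairing. Alternatives were no filter, the mean of a gene's probe sets, a second quantile normalization, only the groups compared, the experiment as a replicate block, a trended and robust prior, and leaving out each array.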

Additional observations from a re-analysis of the deposited data

How the results depend on the processing

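The calls of Mgl2, Clec10a, Cd209a and Cd209c against CD103+CD11b- cells in DSS mice held under every alternative tried, with adjusted p-values up to 0.0111. For Cd209c and Cd209d, calls against CD103+CD11b- cells are a description, since the filter kept these genes through the CD11b+ groups where they are high. Between DSS CD103+CD11b+ and DSS CD103-CD11b+ cells 2 lectin genes were called, 1 with no filter and 1 after a second quantile normalization, and 1 to 3 on leaving out an array. Against DSS CD103+CD11b- cells 7 were called in CD103-CD11b+ cells, and 6 to 7 on leaving out an array; Cd209d passed in CD103+CD11b+ cells only in a fit on the groups compared (adjusted p = 0.0276, limma). After DSS, the trended and robust prior called 1 gene, Mgl2, in CD103+CD11b- cells and 1 in the contrast of CD103+CD11b+ with CD103+CD11b- cells, where 0 were called otherwise, and leaving out an array called 0 to 1 in CD103-CD11b+ cells. These calls draw on the untreated values that chose the genes, and are a description. The cause of their change between settings was not tested. With no filter the untreated median difference between CD103+CD11b+ and CD103+CD11b- cells was 2.32 in place of 3.02, since Cd209e enters.

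Signs that changed all belonged to uncalled differences. For Cd209a the DSS difference of CD103+CD11b+ minus that of CD103-CD11b+ cells was 0.0060 after a second quantile normalization in place of -0.11. On leaving out an array, the DSS difference ran from -0.016 to 0.45 for Clec10a in CD103+CD11b+ cells and from -0.39 to 0.028 for Mrc1 in CD103-CD11b+ cells. The DSS difference of CD103+CD11b+ minus that of CD103+CD11b- cells then ran from -0.37 to 0.10 for Clec10a and from -0.32 to 0.087 for Cd209a; that of CD103-CD11b+ minus CD103+CD11b- cells from -0.24 to 0.19 for Clec10a and from -0.25 to 0.24 for Cd209a. That of CD103+CD11b+ minus CD103-CD11b+ cells ran from -0.29 to 0.42 for Cd209c, from -0.20 to 0.22 for Mrc1, from -0.077 to 0.56 for Cd209d, from -0.39 to 0.10 for Cd209a and from -0.30 to 0.16 for Clec10a. The shift of the median of all genes under that normalization was at most 0.06 in size. The replicate block changed no call of a lectin gene: Mgl2 in CD103+CD11b- cells after DSS had an adjusted p of 0.0638 with the experiment as a random block. Over all genes, 14 were called after DSS in CD103-CD11b+ cells, 24 with the trended prior and 3 on only the groups compared (5 to 29 leaving out an array); 12 in CD103+CD11b+ cells, 0 on only the groups compared (5 to 20); 18 in CD103+CD11b- cells (5 to 12); and 221 between the DSS CD11b+ subsets (97 to 203).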
